A study of Homo sapiens with 3 samples.

Results

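The JAK-STAT pathway was followed through 10 of its genes, STAT3, STAT5A, STAT5B, SOCS2, SOCS3, JAK1, JAK2, PIM1, IL6ST and OSMR, in H209 cells in which the Src-family kinase YES1 was silenced. H209 (NCI-H209) is a human cell line of small cell lung cancer origin. The genes were taken by symbol from a list of names, and all 10 were found among the 60609 genes counted. No rule on their values was used, but the list was drawn up with earlier results of these data known. The study it belongs to is about dasatinib, a kinase inhibitor whose targets include the Src family. Polyadenylated RNA was sequenced from 3 libraries, each from cells infected with a lentiviral Tet-pLKO-puro plasmid whose hairpin doxycycline switches on. The hairpin was sh490 or sh1362, taken as the 2 against YES1 because the labels name the other as control, or shGFP, against a gene that human cells lack. All 3 are described with the same treatment of 1 µg/mL doxycycline every 2 days, and no uninduced library was analysed here. The time from induction to harvest is not given in the sources used here. With 1 library per hairpin, the values of a single hairpin have no replicate check, and the labels do not say whether the libraries came from separate cultures. In such bulk RNA, fewer cells with a transcript and less of it per cell cannot be told apart.

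In this pathway a cytokine binds its receptor, the receptor-bound Janus kinases (JAKs) phosphorylate the receptor and then the STAT proteins, and paired STATs enter the nucleus and switch on target genes. IL6ST encodes gp130, the signalling chain that the receptors for interleukin-6, leukaemia inhibitory factor and oncostatin M share. STAT3 can also be phosphorylated by Src-family kinases, which is why its transcript and those of its targets are of interest when a Src-family member is lost. SOCS proteins are induced by STATs and shut the receptor off again, while PIM1 is a STAT-induced survival kinase. A transcript level does not show how much of a STAT protein is phosphorylated.

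The libraries held 4899006 to 7791747 counts, fewest in shGFP. YES1 was far lower with both hairpins, with 163 counts in sh490 and 216 in sh1362, against 1465 in shGFP (edgeR quasi-likelihood test, adjusted p 0.00761, lower in 2 of 2 hairpin libraries). The 13 neuroendocrine small cell markers were all detected in each library, among them CALCA and EPCAM at 10484 and 1156 TPM in shGFP (counts scaled for exon length and depth). The shGFP library also carried blood transcripts. The 11 red cell markers summed to 18.8 CPM (TMM-normalised counts scaled for depth) in sh490 and 20.4 in sh1362, against 735.1 in shGFP, of which HBB, HBA1 and HBA2 made up nearly all, while GYPB had no read. The 15 leukocyte markers summed to 2.40 and 3.79 CPM in the hairpin libraries and 12.4 CPM in shGFP. Of these 15, 10 had no read in each hairpin library, against 4 in shGFP. S100A9 was the highest of them in shGFP, at 27.3 TPM, against 0.857 in sh490 and 0 in sh1362. CD14 was not higher in shGFP, at 4.17 and 2.93 TPM with the hairpins against 2.85. CD3E and FCER1G had no read in any library.

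Levels in the control were compared per exon length. STAT3, JAK1 and IL6ST were the abundant members, at 113.1, 99.7 and 99.7 TPM in shGFP, each above at least 91.3% of protein-coding genes. STAT5B and STAT5A followed at 42.2 and 26.1 TPM, then SOCS2, PIM1 and JAK2 at 15.9, 13.9 and 10.3 TPM. SOCS3 and OSMR stood last at 0.858 and 0.327 TPM, each resting on 3 counts. So the line transcribed the shared receptor chain, its main kinase and STAT3 strongly, and showed almost no transcript of the STAT3 feedback inhibitor SOCS3 or of the oncostatin M receptor chain.

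**Figure D1:**
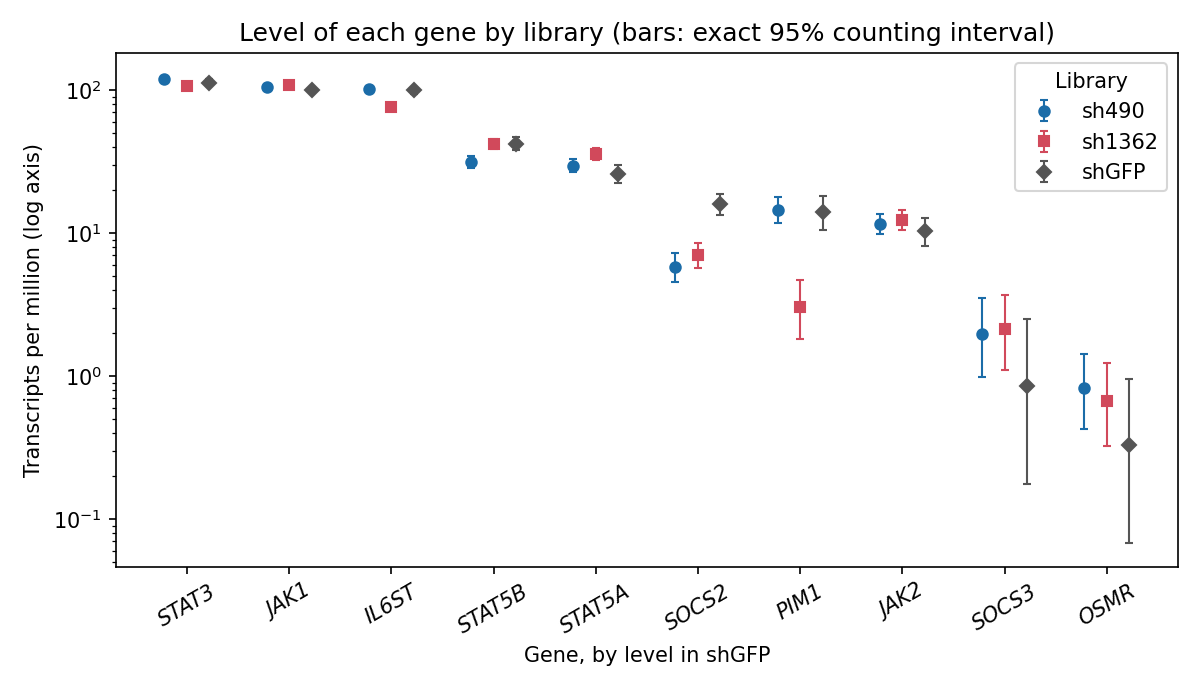
TPM (log axis) of the 10 genes in sh490, sh1362 and shGFP, with exact 95% Poisson intervals that cover counting error only. STAT3, JAK1 and IL6ST lie highest in each library, between 76.2 (IL6ST in sh1362) and 119.7 TPM (STAT3 in sh490), SOCS2 lies lower in both hairpin libraries than in shGFP, and PIM1 lies low in sh1362 alone.

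The order of levels in shGFP was resolved only in part. The exact 95% counting interval of STAT3 (107.0 to 119.5 TPM) did not overlap that of JAK1 (94.9 to 104.7), whereas JAK1 and IL6ST could not be separated. Neither could SOCS2 from PIM1, PIM1 from JAK2, or SOCS3 from OSMR. STAT3 was 2.68 times as high as STAT5B and 4.33 times as high as STAT5A in shGFP, and JAK1 was 9.71 times as high as JAK2. Without regard to length, JAK1 stood above IL6ST and STAT3 in CPM, and its exons span 12620 bases, against 8812 for STAT3.

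STAT3, the transcription factor that gp130 receptors activate, did not differ detectably from the control. It had 2149 counts in sh490 and 1937 in sh1362, against 1274 in shGFP, which are 271.0 and 262.3 against 263.4 normalised CPM. For sh490 the ratio to shGFP was 1.03, and counting error alone gives an exact 95% interval of 0.960 to 1.10, as for every ratio below. For sh1362 it was 0.996 (0.927 to 1.07). The edgeR test of both hairpins against shGFP gave a log2 fold of 0.02 ± 0.26 (standard error, adjusted p 0.998). STAT3 lies on chromosome 17 from 42313324 to 42388568 on the minus strand of GRCh38, 1380 bases from STAT5A, and STAT5B follows after a further 10839 bases. None of the exons of these STAT genes overlapped another counted gene.

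Of its neighbours STAT5A and STAT5B, only STAT5B lay away from the control by more than counting error with sh490, and only STAT5A with sh1362. Both transmit signals of growth hormone, prolactin and interleukin-2 type receptors. STAT5A had 347 counts in sh490 and 428 in sh1362, against 192 in shGFP, equal to 43.8 and 57.9 against 39.7 CPM, and both hairpin libraries lay above the control. The ratio was 1.10 with sh490 (0.922 to 1.32) and 1.46 with sh1362 (1.23 to 1.74). STAT5B had 411 and 560 counts, against 348 in shGFP, equal to 51.8 and 75.8 against 71.9 CPM. Here sh490 lay below the control, at a ratio of 0.721 (0.623 to 0.834), and sh1362 beside it, at 1.05 (0.920 to 1.21). STAT5B was 1.06 and 1.17 times as high per length as STAT5A in sh490 and sh1362, and 1.62 times in shGFP. Neither gene passed the edgeR test (adjusted p 0.986 for each). The levels of this pair are uncertain to some degree, since 11.9% of the 50-base windows in the longest STAT5A transcript occur unchanged in STAT5B, and reads aligned to several places were not counted.

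The Janus kinases JAK1 and JAK2, which phosphorylate the receptors and STATs, differed little from the control. JAK1, the main kinase of gp130 receptors, had 2722 counts in sh490 and 2825 in sh1362, against 1609 in shGFP. Its ratios were 1.03 (0.970 to 1.10) and 1.15 (1.08 to 1.22). JAK2, the kinase of growth hormone and erythropoietin receptors, had 146 and 159 counts, against 81 in shGFP, with ratios of 1.10 (0.833 to 1.46) and 1.29 (0.978 to 1.70). Both hairpin libraries lay above shGFP for each kinase, by less than the edgeR standard errors (log2 folds of 0.13 ± 0.27 and 0.25 ± 0.37, adjusted p 0.988 and 0.986).

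IL6ST, the shared receptor chain, had 2107 counts in sh490 and 1597 in sh1362, against 1289 in shGFP, or 265.7 and 216.2 against 266.5 CPM. The sh490 library equalled the control within counting error, at 0.997 (0.930 to 1.07), and sh1362 lay below it at 0.811 (0.754 to 0.874). The edgeR log2 fold was -0.14 ± 0.28 (adjusted p 0.986). Of its exon bases 7.88% overlap an annotated gene on the other strand, and reads that fall in such overlaps were left out. OSMR, the chain that pairs with gp130 to bind oncostatin M, had 12 and 10 counts against 3 in shGFP. Ratios of 2.44 (0.659 to 13.5) and 2.18 (0.562 to 12.3) leave its direction unresolved at this depth.

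SOCS2, the inhibitor that STAT5 induces and that restrains growth hormone signalling, was the 1 member that lay below the control by more than counting error in both hairpin libraries. It had 76 counts in sh490 and 94 in sh1362, against 132 in shGFP, the shallowest library. These equal 9.59 and 12.7 against 27.3 CPM, so both hairpin libraries lay below the control. The same held for 34.4% of the 11634 genes averaging at least 5 CPM, so that order alone does not set SOCS2 apart. The ratio to shGFP was 0.351 with sh490 (0.261 to 0.469) and 0.466 with sh1362 (0.354 to 0.612). The edgeR test gave a log2 fold of -1.29 ± 0.38 and an unadjusted p of 0.00921, but the adjusted p was 0.986, so SOCS2 did not pass. Adjusted p over the 9 settings tried ran from 0.258 to 1.000. The gene spans chromosome 12 from 93569814 to 93583487 on the plus strand, and 4.28% of its exon bases overlap the antisense gene SOCS2-AS1, so a few reads cannot be assigned. The blood transcripts of shGFP run in the same direction as SOCS2, and their part in the difference was not tested.

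SOCS3, the direct feedback inhibitor of gp130 receptors, gave too few reads to place. It had 11 counts in sh490 and 12 in sh1362, against 3 in shGFP, with ratios of 2.24 (0.591 to 12.5) and 2.62 (0.707 to 14.5). Like OSMR, it reached the minimum count for the test only in the hairpin libraries, so its place above the control in both is partly set by that minimum. The edgeR log2 folds were 1.25 ± 1.23 for SOCS3 and 1.19 ± 1.24 for OSMR, about as large as their standard errors (adjusted p 0.986 each).

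PIM1, the STAT-induced survival kinase, separated the hairpins from each other. It had 90 counts in sh490 and 19 in sh1362, against 54 in shGFP, equal to 11.4 and 2.57 against 11.2 CPM. The sh490 library matched the control at a ratio of 1.02 (0.718 to 1.45), while sh1362 lay at 0.230 (0.129 to 0.395). The sh1362 library also differed from the others elsewhere: mitochondrial genes took 5.50% of counts in sh490 and 7.78% in sh1362, against 5.47% in shGFP, and the median log2 ratio of the 13 neuroendocrine markers was -0.11 with sh490 and 0.34 with sh1362. Whether these bear on values low in sh1362 alone was not tested. Between the hairpins PIM1 was 4.41-fold higher with sh490 than with sh1362 (2.67 to 7.67). It was the 1 member of 8 at least 2-fold higher in that comparison, with 0 lower, where 3.88% and 2.02% of genes with a mean of at least 5 CPM were. The edgeR log2 fold of -0.67 ± 0.78 for both hairpins (adjusted p 0.986) rests on sh1362: the log2 fold was 0.02 with sh490 alone and -2.00 with sh1362 alone. Of the related kinases, PIM2 had 143 and 139 counts, against 113 in shGFP, and PIM3 404 and 436, against 212. Their log2 ratios were -0.37 and -0.31 for PIM2 and 0.22 and 0.43 for PIM3, each pair on 1 side of the control.

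**Figure D2:**
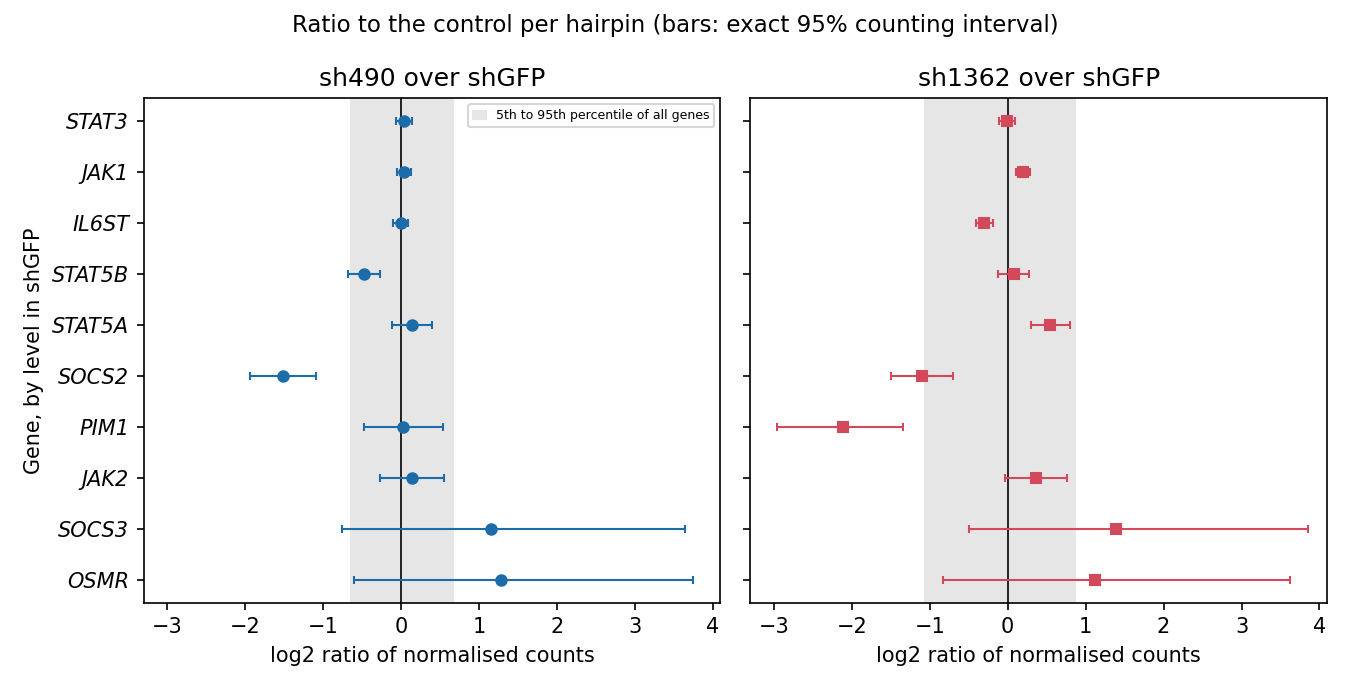
log2 ratio of each gene's normalised counts, sh490 over shGFP (left) and sh1362 over shGFP (right), with exact 95% counting intervals; the grey band spans the 5th to 95th percentile of all genes averaging at least 5 CPM. SOCS2 lies left of the band with sh490 and at its edge with sh1362, PIM1 lies left of it with sh1362 only, and STAT3 lies at 0 in both.

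Across the list, 0 of the 10 members passed the edgeR test, where 0.0255% of the 15708 genes tested passed (0 higher and 4 lower: YES1 and the globins HBB, HBA1 and HBA2). At an unadjusted p under 0.05 there was 1 member, SOCS2, against 4.35% of all genes; DESeq2 and limma-voom also called 0 members. The 8 members with a mean of at least 5 CPM were also judged by size, without a test. With sh490, 0 were at least 2-fold higher and 1 (SOCS2) at least 2-fold lower, where 1.4% and 1.42% of 11634 genes were. With sh1362, 0 were at least 2-fold higher and 2 (SOCS2 and PIM1) lower, where 3.29% and 6% of genes were. Of the 8, STAT5A, JAK1 and JAK2 (3 genes) lay above shGFP in both hairpin libraries and 2, SOCS2 and IL6ST, below it in both, where 33.8% and 34.4% of genes at that level did (34.4% and 34% of all genes tested). IL6ST with sh490 was at the control within counting error, and scaling by library totals put it at a log2 ratio of 0.04, which leaves SOCS2 alone below in both. STAT5A and JAK1 with sh490, and JAK2 with both hairpins, were also within counting error of the control. None of the 3 genes thus lay above it in both libraries by more than counting error. The median log2 ratio of the 8 was 0.03 with sh490 and 0.03 with sh1362, against 0.00 and -0.01 over all genes. Both ratios share the shGFP library. In a single simulated draw of 15708 genes, known changes were set in a sample of genes with a mean above 5 CPM. The test recovered 81% of the 4-fold but 13% of the 2-fold changes. Differences between the hairpins entered that draw only as random spread, so the rates may not hold for the measured libraries. The change seen for SOCS2 lies between these sizes.

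The genes whose pair of ratios lay nearest to that of STAT3 were ANKRD52, DLG5 and SYVN1, at distances of 0.0036, 0.0051 and 0.0094 on the log2 scale over 3 libraries. As 494 of 10961 protein-coding genes lay within 0.1 of STAT3, nearness to it does not set these genes apart.

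The other genes of the pathway were described from 7 lists of 110 genes in all: ligands, receptors, other JAKs and STATs, inhibitors and targets. Of these 74 were tested and 0 passed the edgeR test in either direction; 11 had an unadjusted p under 0.05, where 4.35% of all genes did. No read was found for 19 of them in any library, and 4 of the 110 have a copy on both sex chromosomes, where reads may have been left out. Of the 55 with a mean of 5 CPM or more, 2 were at least 2-fold higher and 2 lower with sh490, and 2 higher and 7 lower with sh1362, where 1.4% and 1.42% of all genes were with sh490 and 3.29% and 6% with sh1362. Their median log2 ratios were -0.06 and -0.21, against 0.00 and -0.01 over all genes. Genes named below from these lists were picked by large ratios on the same side with both hairpins, or after their values were seen. Their unadjusted p-values and shared side follow in part from that choice and are no separate evidence of a change.

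**Figure D3:**
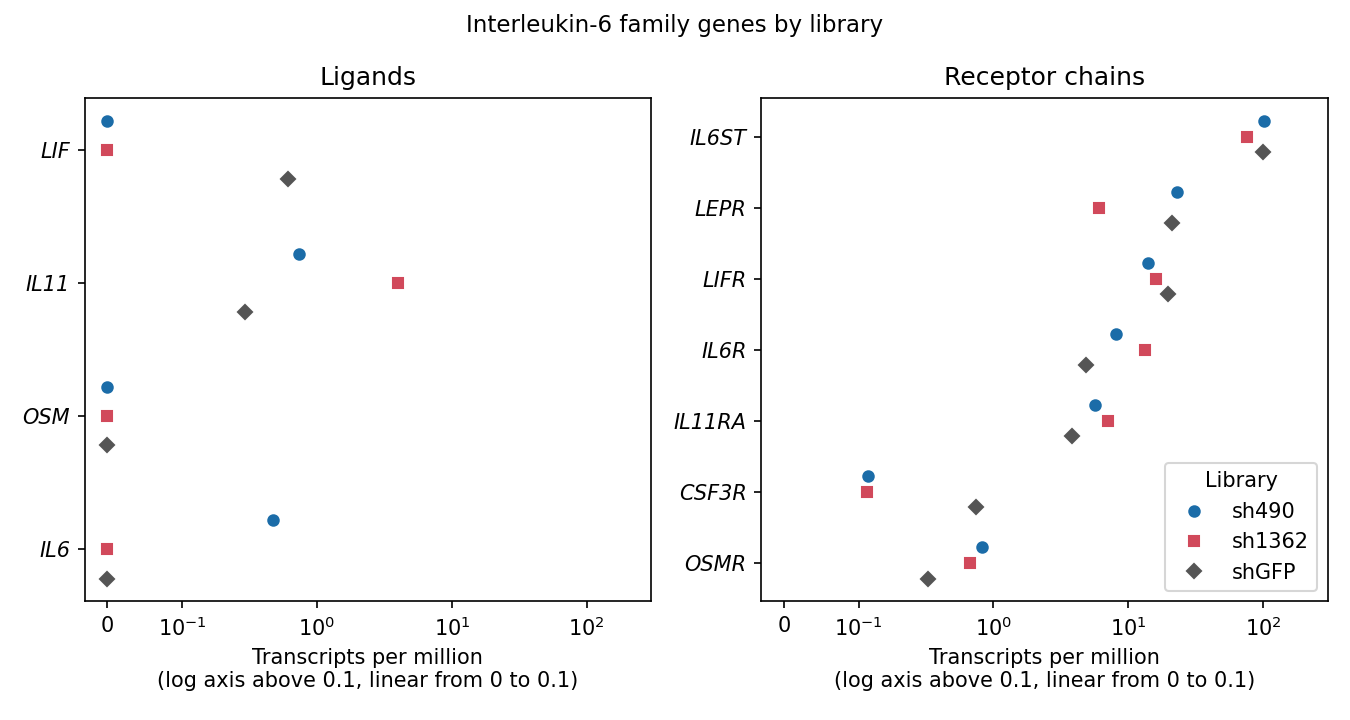
TPM of the named interleukin-6 family ligands (left) and receptor chains (right) in sh490, sh1362 and shGFP, on an axis that is linear from 0 to 0.1 and logarithmic above. Ligands lie below 5 TPM in each library, and among receptor chains IL6ST stands apart at 76.2 TPM or more.

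Transcripts of gp130 ligands were scarce. IL6, the founding ligand, had 2 counts with sh490 and 0 with sh1362, against 0 in the control, and OSM, the ligand of OSMR, had none in any library. LIF had 0 counts in both hairpin libraries and 3 in shGFP. Zero counts allow up to 0.378 CPM with sh490 and 0.406 CPM with sh1362, against 0.620 CPM in the control. The 11 ligand genes together summed to 7.06 CPM with sh490 and 6.36 CPM with sh1362, against 5.58 CPM in the control. None reached a mean of 5 CPM.

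Among partner chains of gp130, the receptor of leukaemia inhibitory factor, LIFR, had 348 counts in sh490 and 405 in sh1362, against 308 in shGFP, with ratios of 0.689 (0.590 to 0.806) and 0.861 (0.741 to 1.00). In shGFP it was about as abundant as the leptin receptor LEPR, a relative that signals without gp130, at 19.8 and 21.2 TPM. LEPR had 529 counts in sh490 and 142 in sh1362, against 308 in shGFP, at ratios of 1.05 (0.909 to 1.21) and 0.302 (0.246 to 0.370). As with PIM1, the sh1362 library alone was low. IL6R, the interleukin-6 binding chain, had 106 and 179 counts, against 40 in shGFP, at ratios of 1.62 (1.11 to 2.39) and 2.93 (2.07 to 4.24). Both hairpin libraries lay above the control, and IL6R did not pass the edgeR test (unadjusted p 0.0472, adjusted p 0.986). IL11RA, the interleukin-11 binding chain, had 49 and 63 counts, against 21, at ratios of 1.42 (0.838 to 2.50) and 1.96 (1.18 to 3.39). IL6ST exceeded IL6R per length by 12.7 times in sh490, 5.69 times in sh1362 and 20.6 times in shGFP.

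Among receptors outside the gp130 family, IL13RA1, a chain of the interleukin-13 and type II interleukin-4 receptors, had 508 counts in sh490 and 501 in sh1362, against 182 in shGFP. Its ratios were 1.70 (1.43 to 2.03) and 1.80 (1.52 to 2.15), and it did not pass (edgeR unadjusted p 0.0271, adjusted p 0.986). The others named by the same rule, which asks for the same side with both hairpins, had values below the control. IL22RA1, of the interleukin-22 receptor, had log2 ratios of -0.68 and -1.22. IFNLR1, of the interferon-lambda receptor, had -0.41 and -0.94, and IFNGR1, of the interferon-gamma receptor, -0.19 and -0.92. With sh490 IFNLR1 and IFNGR1 were within counting error of the control, at ratios of 0.745 (0.520 to 1.07) and 0.878 (0.720 to 1.07). Erythropoietin receptor transcripts were present at 20.9 and 18.5 TPM with the hairpins and 18.6 TPM in shGFP. The lymphoid chains IL2RA, IL2RB, IL2RG and IL21R had no read in any library.

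Of the other kinases and STATs of the pathway, 0 of 6 passed the edgeR test. TYK2 and JAK3 had 10.1 and 2.76 TPM in shGFP, so that JAK1 exceeded them 9.89 and 36.2 times there. STAT2 and STAT6 lay above the control with sh490, at log2 ratios of 0.65 and 0.58, but not with sh1362, at -0.11 and -0.16. STAT4 rested on 7 or 8 counts per library.

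Among inhibitors, the SOCS genes that the line transcribed most were SOCS4 and SOCS6, at 95.3 and 89.0 TPM in shGFP, well above SOCS2. SOCS5 had 175 counts in sh490 and 227 in sh1362, against 234 in shGFP, at ratios of 0.456 (0.373 to 0.557) and 0.635 (0.527 to 0.766) (edgeR unadjusted p 0.0304, adjusted p 0.986). SOCS1 had 1, 0 and 0 counts. CBL, a ubiquitin ligase that turns receptors over, had ratios of 0.641 (0.559 to 0.736) and 0.526 (0.454 to 0.609), and SH2B3, an adaptor that restrains JAK2, 0.765 (0.554 to 1.06) and 0.627 (0.443 to 0.887). PTPN6, the phosphatase SHP-1, lay above the control at 1.48 (1.27 to 1.72) and 1.53 (1.31 to 1.78). Of 15 inhibitors with a mean of 5 CPM or more, 4 lay above and 10 below shGFP in both hairpin libraries, against the 33.8% and 34.4% of all genes. None of the 16 tested passed.

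Known STAT3 targets lay on both sides of the control, and 0 of 22 passed the edgeR test. Of 18 with a mean of 5 CPM or more, 5 lay above and 6 below shGFP in both hairpin libraries, near the 33.8% and 34.4% of all genes, and the median log2 ratio was 0.02 with sh490 and -0.30 with sh1362. FGB, the fibrinogen beta chain and an acute-phase gene of the liver, had 49 counts in sh490 and 183 in sh1362, against 11 in shGFP. Its ratios were 2.72 (1.39 to 5.80) and 10.9 (5.95 to 22.2), the highest of the list with each hairpin among these 18. It did not pass (edgeR log2 fold 2.75 ± 0.96, adjusted p 0.986), except without a filter on low counts (adjusted p 0.00335). CCND1, encoding cyclin D1, lay lower at 0.530 (0.470 to 0.597) and 0.676 (0.603 to 0.757), and BCL3, a nuclear I-kappa-B protein, had 36 and 30 counts, against 32 in shGFP, at ratios of 0.686 (0.414 to 1.14) and 0.614 (0.360 to 1.04). MCL1, a survival factor of the BCL2 family, was abundant, at 260.3 and 175.9 TPM with the hairpins and 246.8 TPM in shGFP.

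Of 10 tested STAT5 targets 0 passed the edgeR test. Of 8 with a mean of 5 CPM or more, 3 lay above and 3 below the control in both hairpin libraries, near the 33.8% and 34.4% of all genes. IRS2, an adaptor of insulin and IGF receptors, had 705 counts in sh490 and 655 in sh1362, against 863 in shGFP, at ratios of 0.498 (0.451 to 0.551) and 0.497 (0.448 to 0.551). CCND2, encoding cyclin D2, lay lower at 0.637 (0.611 to 0.664) and 0.391 (0.373 to 0.411). ID1, an inhibitor of helix-loop-helix factors, lay higher at 2.41 (1.85 to 3.18) and 1.67 (1.26 to 2.24). These genes were named for the size of their ratios, which also lowers the unadjusted p. None passed the edgeR test (unadjusted p 0.00467, 0.0199 and 0.0304, adjusted p 0.986 each). CISH, a SOCS relative that STAT5 induces, had 25 and 18 counts, against 25 in shGFP, at ratios of 0.610 (0.336 to 1.11) and 0.472 (0.242 to 0.900). CISH was thus below the control by more than counting error with sh1362 only, on few reads. Its intervals overlapped those of SOCS2 with both hairpins, so a difference between these genes was not resolved.

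**Figure D4:**
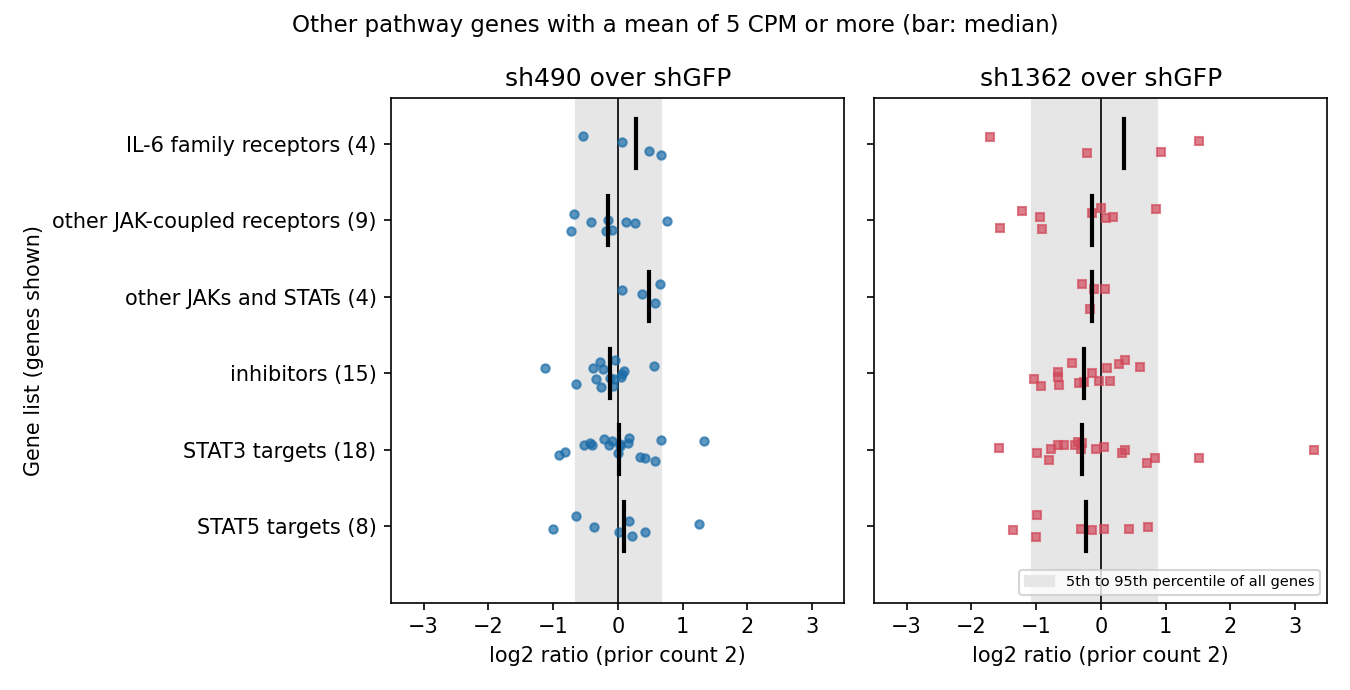
log2 ratio (prior count of 2) of pathway genes averaging at least 5 CPM, sh490 over shGFP (left) and sh1362 over shGFP (right), 1 point per gene and a bar at each list's median; the grey band spans the 5th to 95th percentile of all genes. Most points lie inside the band, and FGB is the point at 3.29 with sh1362.

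STATs bind paired half-sites of the form TTCNNNGAA, which reads the same on both strands, so promoters were searched for these letters. Sequences were those of RefSeq (GRCh38.p14), limited to the 250 bases before each annotated start. Among all 35116 promoters 6.57% held the motif. Of the 10 members 9 had promoters in the table, 17 in all, and 0 of these held it. Of 82 pathway genes with an entry 10 held it in at least 1 promoter (12.2%), as did 8.09% of all 27305 genes in the table. The sites of CISH are shown because it is the textbook STAT5 target, with 4 of them, and those of FGA and BCL6 as STAT3 targets measured here; the motif is in capitals, 5′ to 3′ on the minus strand that carries each gene.
CISH, 241 bases before the start: cgccccgttTTCCTGGAAagttcttgga
CISH, 230 bases before the start: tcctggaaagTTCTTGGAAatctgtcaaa
CISH, 129 bases before the start: cagcccgcggTTCTAGGAAgacgctgctt
CISH, 112 bases before the start: aagacgctgcTTCCGGGAAgggctggaac
FGA, 231 bases before the start: agccaccctgTTCCTGGAAtgtgagatct
BCL6, 28 bases before the start: gaagctcaaaTTCCGAGAAttgagctctg
The CISH windows lie at chr3:50611997-50612024, chr3:50611986-50612014, chr3:50611885-50611913 and chr3:50611868-50611896, and within each neighbouring pair of windows, the first pair and the last, the bases overlap. That of FGA lies at chr4:154590955-154590983 and that of BCL6 at chr3:187745478-187745506. CISH had 25 and 18 counts with the hairpins and 25 in shGFP, FGA 17 and 21 against 2, and BCL6 96 and 39 against 52. CISH had the ratios given above, below the control by more than counting error with sh1362 only. The log2 ratios were 1.78 and 2.14 for FGA and 0.17 and -0.99 for BCL6. FGA reached the minimum count for the test only in the hairpin libraries, so its place above the control is partly set by that minimum. CISH, FGA and BCL6 were named after their values were seen, and no shared direction is read from them. Sites of ICAM1 and LRG1, also listed as STAT3 targets, are not shown. A match of letters is not a measured binding site.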

How the data were processed

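Each library came as a deposited table of unnormalized gene counts. The submitters' processing notes list FastQC 0.11.8, STAR 2.6.1c and GRCh38. Counts were made by featureCounts 1.6.0 over GENCODE 32 exons, per the file headers. Their command shows no option for strand, read pairs, multiple alignments or overlapping genes, so both strands were added, and reads with several alignments or in overlaps of genes were left out. Lengths of exons are those deposited in the same tables. Symbols were matched for 60295 of 60609 genes.

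Both YES1 hairpins were compared as 1 group with shGFP by edgeR 4.0.16 in R 4.3.3, with TMM scaling and filterByExpr at its defaults. That filter asked for at least 1.35 CPM in 1 library and for a minimum total count. The robust quasi-likelihood F test was two-sided, with a Benjamini-Hochberg adjusted p under 0.05 over all genes. Between the hairpins 1 residual degree of freedom remained, with the spread moderated over genes, and shGFP was assumed to vary as they do; p-values measure the spread between these libraries. Fits with DESeq2 1.42.0 and limma 3.58.1 were alternatives. Single hairpins were compared by size alone: ratios of TMM-scaled counts have exact 95% conditional binomial intervals, and log2 ratios a prior count of 2. Intervals and the limit of 3 counts set by a count of 0 cover counting error only, since the reads carry no molecular identifiers. The procedure was tested on simulated data.

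Named pathway genes were, per list, up to 4 with a mean of 5 CPM or more and the largest smaller absolute ratio on the same side with both hairpins; TYK2, JAK3, STAT2, STAT4, STAT6, LEPR, IL6, OSM, LIF, EPOR, the IL2 receptor chains, IL21R, SOCS1, SOCS4, SOCS6, CISH, MCL1, PIM3, FGA and BCL6 were added after their values were seen. Some genes of the lists are not reported here by name. The members and lists were chosen with earlier results of these data known.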

Additional observations from a re-analysis of the deposited data

How the results depend on the processing

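Members past the test numbered 0 under each of the 8 other settings tried: DESeq2 size factors, library totals without TMM, no filter on low counts, a mean of 5 CPM or more, the DESeq2 Wald test, limma-voom, and mitochondrial or globin genes left out, the last chosen after the data were seen. All genes past the test numbered 4, against 58 without a filter, 2 with limma-voom and 1 without the globin genes, where YES1 remained. Wider pathway genes past the test numbered 0, and 1 (FGB) without a filter; the cause was not tested. Under these settings no member's fold for both hairpins together changed direction. For a single hairpin, library totals put IL6ST with sh490 at 0.04 and STAT3 with sh1362 at 0.01 on the log2 scale, each just below 0 with TMM. Leaving out a hairpin gave values without a test, and counts of calls could not then be had: PIM1 ranged from -2.00 without sh490 to 0.02 without sh1362, and SOCS2 from -1.48 without sh1362 to -1.08 without sh490, on the log2 scale; without sh490, STAT3 was at -0.01 and STAT5B at 0.08, against 0.02 and -0.17 with both. Levels in TPM and in CPM put 5 of the 10 members at the same place in the order. No paired analysis was possible because the labels number no replicates and there is 1 control library. Depth limits SOCS3 and OSMR most, with 3 counts each in shGFP.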

Other observations

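A few pathway genes below a mean of 5 CPM had more reads in the hairpin libraries than in the control. They reached the minimum count for the test only through the hairpin libraries, as SOCS3 and OSMR did. They were chosen after their values were seen, and none passed the edgeR test (adjusted p 0.986 each). CEBPD, a transcription factor of the acute-phase response, had 13 counts in sh490 and 33 in sh1362, against 0 in shGFP, at least 2.64-fold and 7.20-fold higher against a limit of 3 counts in the shGFP library; with the counting error of both libraries the exact 95% lower limits of the ratios were 1.86 and 5.54. The fibrinogen chains FGA and FGG, secreted together with FGB, had 17 and 21 counts against 2, and 4 and 33 counts against 0; FGG with sh490 could not be placed above the control at this depth. For FGA the ratios were 5.19 (exact 95% counting interval 1.23 to 46.3) with sh490 and 6.88 (1.68 to 60.5) with sh1362. The cytokine IL11 had 4 and 22 counts against 1, a ratio of 2.44 (0.242 to 120.2) and 14.4 (2.33 to 594.7), unresolved with sh490. In the other direction CSF3R, the neutrophil growth factor receptor, had 2 counts in each hairpin library and 8 in shGFP, and IL7R 0 in each and 4 in shGFP, the library in which the leukocyte markers S100A9 and S100A8 had 20 and 5 counts. The same 2 markers had 1 and 0 counts in sh490 and 0 and 0 in sh1362. Neither receptor entered the edgeR test, and the part of leukocyte RNA in these differences was not tested.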
